A study of Homo sapiens with 32 samples.

Results

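The uracil-enriched regions of HCT116 cells treated with raltitrexed (RTX) were compared between mismatch repair (MMR) deficient and MMR proficient cells, using the replicate region files of both groups. These were 2 libraries of RTX_UGI (MMR deficient) and 2 libraries of RTX_UGI_MMR (MMR proficient), 4 of the 32 samples of the series. HCT116 is a human colorectal carcinoma line that lacks functional MMR, and its MMR proficient counterpart carries an added chromosome 3 that restores it. That counterpart is a single sub-line, so MMR status and any other difference between the sub-lines cannot be told apart. Both groups stably expressed UGI, an inhibitor of the uracil-DNA glycosylase UNG, and received 100 nM RTX for 48 h. The non-treated libraries of the same sub-lines (NT_UGI and NT_UGI_MMR, 2 each) and those treated with 20 µM 5FdUR for 48 h (5FdUR_UGI and 5FdUR_UGI_MMR, 2 each) were used for comparison. Region files of genomic DNA carry no gene expression, so the identity of the cells and the presence of the added chromosome were not checked.

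RTX is an antifolate that inhibits thymidylate synthase, the enzyme that converts dUMP into dTMP. When dTTP falls and dUTP rises, DNA polymerases place uracil opposite adenine in newly made DNA. UNG normally removes such uracil at the start of base excision repair, and UGI blocks this step so that uracil is retained. MMR recognizes mispaired bases behind the replication fork, after which the new strand is excised and resynthesized. A uracil paired with adenine is not a mispair. In U-DNA-Seq the uracil-containing DNA is pulled down with a catalytically inactive UNG and sequenced beside its input, and a region is a stretch where the coverage of the pull-down relative to its input, on a log2 scale, lies above a threshold.

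The longest stretch that separated the groups lies on chromosome 4, and its central 200 bases are shown because there both replicates of each group gave the same call and the groups gave opposite calls. This stretch was called in both RTX_UGI libraries and in neither RTX_UGI_MMR library and was 63800 bp long (GRCh38 chr4:30637801-30701600). It lies outside protein-coding genes, 18769 bp from PCDH7, a protocadherin, and its GC content was 36.3%. In the plus strand sequence below, capitals mark runs of at least 4 thymines, the base that uracil replaces.
chr4:30669601-30669800, plus strand: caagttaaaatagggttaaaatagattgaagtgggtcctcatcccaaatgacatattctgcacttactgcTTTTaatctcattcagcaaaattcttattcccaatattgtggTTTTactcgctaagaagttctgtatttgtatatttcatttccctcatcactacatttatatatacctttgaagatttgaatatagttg
This window held 39% thymine with 2 such runs. After 5FdUR, the stretch was not covered in either 5FdUR_UGI library and was covered to 7.68% and 22.6% in the 5FdUR_UGI_MMR libraries. Among the non-treated libraries it was covered to 24.3% and 23.7% in NT_UGI and to 32.4% and 29% in NT_UGI_MMR.

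The regions on chromosomes 1 to 22 and X added up to similar lengths. The thresholds were chosen so that the replicates of a condition had similar totals, which does not by itself match the groups. The totals were 506 and 555 Mb in RTX_UGI and 525 and 533 Mb in RTX_UGI_MMR, which is 17.4%, 19.1%, 18% and 18.3% of the known bases. A lower share in some parts of the genome was thus accompanied by a higher share in others. Since coverage was scaled to the genome and cut at a threshold, the covered share is relative and does not measure the amount of uracil. By dot blot, the paper reports a higher uracil content in drug-treated MMR proficient cells than in MMR deficient ones. Across 100 kb bins the Pearson correlation was 0.982 between the RTX_UGI replicates, 0.946 between the RTX_UGI_MMR replicates and 0.870 to 0.935 between the groups. RTX_UGI_MMR replicate 1 stood furthest from RTX_UGI, with correlations of 0.871 and 0.870 against 0.933 and 0.935 for replicate 2. The number of reads behind a region is not recorded in these files, so the spread between replicates is the only measure of precision.

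MMR proficient cells carried fewer of their regions in GC-rich DNA and more of them in moderately AT-rich DNA. In bins of 51 to 54% GC the mean covered share, that is the percent of known bases inside regions, was 55.9% and 62.8% in RTX_UGI and 34.2% and 49.9% in RTX_UGI_MMR. The 870 bins of this class thus lay 17.3 percentage points lower on average in MMR proficient cells, with no overlap between the groups. The separation was widest in the 180 bins of at least 57% GC, with 53.2% and 63.8% against 21.4% and 36.9%. The order was turned in bins of 39 to 42% GC, where 14.5% and 15.6% were covered in RTX_UGI and 19.3% and 17% in RTX_UGI_MMR. The groups overlapped in the classes from 42 to 48% GC and below 36% GC. In the non-treated libraries the difference between MMR proficient and deficient cells was 0.767 percentage points or less in every class, and hardly any GC-rich DNA was covered there, at most 0.284% in bins of 51 to 54% GC. After 5FdUR the GC-rich classes were also less covered in MMR proficient cells, by 23.3 percentage points at 51 to 54% GC. Within RTX_UGI_MMR, replicate 1 lay further from RTX_UGI than replicate 2 in the classes from 48% GC upward, and without it the difference was -9.42 percentage points at 51 to 54% GC and 0.596 at 36 to 39% GC, where it was 2.01 with both. The number of reads was not available here, so the part of sequencing bias by GC content was not tested.

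The regions were also shorter in MMR proficient cells, although a similar share of the genome was covered. RTX_UGI had 96711 and 84522 regions, whereas RTX_UGI_MMR had 130511 and 107642. The N50, the length at which regions of that size or longer hold 50% of region bases, was 19400 and 31600 bp in RTX_UGI and 11300 and 15900 bp in RTX_UGI_MMR. Neither the numbers nor the N50 values overlapped between the groups. With all regions the median hardly differed, at 1200 and 1300 bp against 1200 bp in both, and the groups differed in the long regions. This depended on the threshold. With only regions of a log2 of at least 0.34, the difference of the median was -1600 bp and that of the number 11078. Regions of at least 50 kb held 28.3% and 41.1% of region bases in RTX_UGI and 9.81% and 20.4% in RTX_UGI_MMR. The longest region measured 440600 and 509500 bp in the former and 212600 and 362000 bp in the latter. The groups did not overlap in number, N50, share in long regions and longest region, and the two-sided exact permutation p was 0.333 for each of these, the smallest p that 2 against 2 libraries allow. Without RTX_UGI_MMR replicate 1 the difference in number shrank from 28460 to 17026 and that of the longest region from -187750 to -113050 bp, and without RTX_UGI replicate 2 that of the N50 shrank from -11900 to -5800 bp.

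The long regions of RTX_UGI were mostly covered in RTX_UGI_MMR, but in more pieces than in the other RTX_UGI replicate. RTX_UGI replicate 1 had 1515 regions of at least 50 kb. RTX_UGI_MMR replicates 1 and 2 covered a median of 82.7% and 93.0% of such a region, and RTX_UGI replicate 2 a median of 99.6%. The median number of pieces was 7 and 5 in the RTX_UGI_MMR libraries and 2 in RTX_UGI replicate 2. Only 0.132% and 0.066% of these regions were covered to less than 10% in the RTX_UGI_MMR libraries. For the 2078 such regions of RTX_UGI replicate 2, RTX_UGI replicate 1 itself showed a median of 5 pieces, against 9 and 7 in the RTX_UGI_MMR libraries. In the reverse direction, the 693 long regions of RTX_UGI_MMR replicate 1 were covered to a median of 96.9% and 99.3% in RTX_UGI, in a median of 3 and 2 pieces. The number of pieces also differed between libraries of a group, since the 1289 long regions of RTX_UGI_MMR replicate 2 were covered to a median of 89.6% in a median of 6 pieces in RTX_UGI_MMR replicate 1.

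More of the enriched DNA was called in all 4 libraries than in both libraries of a group and neither library of the other. Of 833 Mb called in any of the 4 libraries, 247 Mb (29.7%) were called in all 4. Bases called in a single library alone made up 4.40% and 6.17% for RTX_UGI replicates 1 and 2, and 10.3% and 6.17% for RTX_UGI_MMR replicates 1 and 2. The bases called in both RTX_UGI libraries and in neither RTX_UGI_MMR library made up 47.3 Mb (5.68%), and the opposite set made up 43.2 Mb (5.19%). The former had a GC content of 47.9% and the latter of 41.5%, beside 44.4% for the bases called in all 4 libraries and 39.6% for those called in none. These sets consisted of short stretches with medians of 600 and 500 bp, and 99.97% and 99.96% of the stretches adjoined a base called in another combination of libraries. Stretches of at least 10 kb were found 97 times in the set of RTX_UGI and 43 times in the set of RTX_UGI_MMR.

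At the scale of chromosomes, the lower share in MMR proficient cells was found on the GC-rich chromosomes 17, 19 and 22. Chromosome 22 was covered to 35.4% and 39.5% in RTX_UGI and to 22.9% and 30.002% in RTX_UGI_MMR. It fell by 11.01 percentage points (SE 2.13, limma adjusted p = 0.00303 over 23 chromosomes). Chromosome 19 was covered to 32.8% and 37.6% against 14.5% and 28.4%, and fell by 13.7 percentage points (SE 3.13, limma adjusted p = 0.00695). Chromosome 17, the chromosome with the highest share in RTX_UGI, was covered to 39.8% and 43.5% against 29.9% and 37.0%, and fell by 8.23 percentage points (SE 2.10, limma adjusted p = 0.0114). No library of a group overlapped with the other group on these chromosomes. They were the only 3 chromosomes called lower (13% of 23), and no chromosome was called higher (0% of 23, and none at an unadjusted p under 0.05 in the limma fit). The highest differences in the other direction were on chromosome 2, with 17.2% and 18.6% against 21.6% and 20.1%, on chromosome 3, with 16.4% and 17.9% against 20.4% and 19.6%, and on chromosome 6, with 14.1% and 15.1% against 18.4% and 16.1%. The groups did not overlap on these chromosomes, and the differences of 2.90, 2.90 and 2.70 percentage points had limma adjusted p values of 0.251, 0.251 and 0.293. The groups did not overlap on 7 chromosomes (30.4%) in each direction. All 3 calls were lost when the genome-wide covered share was made equal (limma adjusted p of 0.118 to 0.17, differences of -8.16 to -13.7) and when only regions of at least 5 kb were kept (limma adjusted p of 0.054 to 0.0782). With either RTX_UGI library left out, no chromosome was called, and without RTX_UGI_MMR replicate 1 the calls were 2.

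Since GC content differs between chromosomes, the share of each chromosome was also set against the share that bins of the same GC content had on the other chromosomes of the same library. This adjustment was chosen after the data had been seen. Chromosome 3, the chromosome added in the MMR proficient sub-line, exceeded its GC-matched share by 3.19 and 3.59 percentage points in RTX_UGI and by 5.47 and 5.46 in RTX_UGI_MMR. The increase of 2.07 percentage points had an SE of 0.218 and a limma adjusted p of 0.0121. It was not particular to this chromosome, since chromosome 2 rose by 2.36 percentage points (limma adjusted p = 0.0242), and chromosomes 1, 7 and 9 were called higher as well. Chromosome 22 deviated from its GC-matched share by -2.04 and -2.48 percentage points in RTX_UGI and by -7.17 and -6.81 in RTX_UGI_MMR, with a limma adjusted p of 0.00479. On chromosome 12 an excess of 4.47 and 4.80 percentage points in RTX_UGI stood at 2.15 and 2.09 in RTX_UGI_MMR, with a limma adjusted p of 0.00766. Chromosome 12 was named after its values had been seen. After this adjustment 5 chromosomes were called higher (21.7% of 23) and 9 lower (39.1% of 23). The counts were 0 and 0 without RTX_UGI replicate 1, 1 and 2 without RTX_UGI replicate 2, and 8 and 12 without RTX_UGI_MMR replicate 2. Chromosome 19 was not among them, since its deviations of -16.8 and -9.72 percentage points differed widely between the RTX_UGI_MMR replicates (limma adjusted p = 0.115). In bins of 39 to 42% GC, chromosome 3 was covered to 18.9% and 20.2% in RTX_UGI and to 27.03% and 24.5% in RTX_UGI_MMR, beside 14.2% and 15.3% against 18.8% and 16.5% on the other chromosomes. The signal is a ratio to input of the same cells, and the part of the added copy of chromosome 3 in this difference was not tested.

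Along the chromosomes, 12083 bins of 100 kb with a mean covered share of 2 to 98% were tested. In MMR proficient cells 197 bins (1.63%) were called higher and 233 bins (1.93%) were called lower by limma at an adjusted p under 0.05 without overlap between the groups. The absence of overlap alone held for 4015 bins (33.2%) in the upward and 3368 bins (27.9%) in the downward direction. The number of called bins depended strongly on single libraries, with 4 higher and 39 lower without RTX_UGI replicate 1, 0 and 1 without RTX_UGI replicate 2, 0 and 0 without RTX_UGI_MMR replicate 1, and 1638 and 837 without RTX_UGI_MMR replicate 2. No bin was called when only regions of at least 5 kb or of a log2 of at least 0.34 were kept, nor with bins of 50 kb. Called bins were therefore used to point to loci, and the values of the single libraries are given for each. The bins called lower had a median GC content of 48.5% and those called higher of 40.4%, beside 42.6% for all bins tested. The share of tested bins called higher was 3.71% on chromosome 3, 3.64% on chromosome 4, 2.75% on chromosome 5 and 2.64% on chromosome 2. The share called lower was 5.86% on chromosome 22, 5.65% on chromosome 12, 4.89% on chromosome 19 and 4.76% on chromosome 17.

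The longest run of bins called higher, 5 bins at chr4:140100001-140600000, contains SCOC, a coiled-coil protein of the Golgi and of autophagy, with MGAT4D and the start of MAML3. It was covered to 12.8% and 15.4% in RTX_UGI and to 84.6% and 74.7% in RTX_UGI_MMR. The replicates lay within 10 percentage points of each other. This run and those below were chosen for a separation of the groups, so their values are given as a description. A run of 4 bins at chr3:169600001-170000000 holds the start of MECOM, a zinc finger transcription factor and oncogene, SEC62, a component of protein import into the endoplasmic reticulum, and LRRC31. It was covered to 27.3% and 28.8% against 82.8% and 72.6%. The other runs had 3 bins each. At chr12:26100001-26400000, with the end of ITPR2, a calcium channel of the endoplasmic reticulum, SSPN, a member of the dystrophin complex, and the circadian repressor BHLHE41, 7% and 11.2% were covered against 80.6% and 66.2%. At chr3:61200001-61500000, which holds the start of the fragile site gene FHIT, 9.23% and 10.7% were covered against 67.3% and 61.5%. FHIT reaches into this run only up to position 61251459, and its whole body was covered to 0% and 0% against 0.745% and 0.538%. At chr9:3600001-3900000, which holds the end of the zinc finger gene GLIS3, 1.90% and 0.333% were covered against 64.2% and 45.2%. These 5 loci had a GC content of 39.6 to 40.9%, and in none of them was an RTX_UGI library covered to more than 28.8%. After 5FdUR the MMR deficient libraries covered the SCOC locus to 55.7% and 59.9% and the SSPN locus to 61.2% and 50.9%.

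The longest run of bins called lower, 7 bins at chr4:30500001-31200000, spans PCDH7. It was covered to 58.1% and 53.4% in RTX_UGI and to 0.143% and 0% in RTX_UGI_MMR. The domain of RTX_UGI was thus all but absent from RTX_UGI_MMR, whereas NT_UGI_MMR was covered to 24.7% and 29.4% there. A run of 6 bins at chr22:37200001-37800000, with the actin-binding protein gene TRIOBP, ELFN2 and a gene without a symbol, had a GC content of 54.3%. It was covered to 81.9% and 86.4% against 17.7% and 30.1%. The remaining runs had 5, 5 and 4 bins and were less GC-rich, at 39.1 to 43.3% GC. At chr12:75500001-76000000, with the end of GLIPR1, a gene known as a p53 target, and the start of KRR1, a ribosome assembly factor, 85.4% and 89.1% were covered against 27.3% and 19.2%. At chr14:68200001-68700000, within RAD51B, a gene of homologous recombination, 59.7% and 75.3% were covered against 14.3% and 17.2%. At chr8:127300001-127700000, which holds POU5F1B, a retrogene upstream of MYC, 69.6% and 81.6% were covered against 21% and 13%. Among the 5461 tested bins of under 42% GC, 77 were called lower and 131 were called higher.

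The same bins were looked up in libraries that had not been used to choose them. In the 197 bins called higher after RTX, the mean covered share after 5FdUR was 34.4% and 38.99% in 5FdUR_UGI and 46.2% and 43.6% in 5FdUR_UGI_MMR. The 5FdUR_UGI_MMR libraries both exceeded both 5FdUR_UGI libraries in 45.2% of these bins, beside 20.6% of all bins tested. Among bins of under 42% GC the shares were 48.9% and 34.4%. In the 77 bins of under 42% GC called lower after RTX, it was 9.13% and 3.46% against 10.5% and 9.83%. All tested bins of under 42% GC were covered to 23.3% and 20.7% in 5FdUR_UGI, so these 77 bins had less room to lie lower. Both 5FdUR_UGI_MMR libraries lay below both 5FdUR_UGI libraries in 6.49% of the 77 bins, beside 26.04% of all tested bins of under 42% GC. They lay above both in 35.1% of the 77 bins, beside 34.4%. In the 119 bins of at least 48% GC called lower after RTX, both lay below in 73.9%, beside 73.5% of all tested bins of that GC content. In the non-treated libraries the bins called higher were covered to 6.01% and 6.36% in NT_UGI and to 5.99% and 6.62% in NT_UGI_MMR, and those called lower to 4.52% and 4.62% against 4.27% and 4.595%.

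The difference between the MMR effects of 2 treatments was tested as an interaction in limma. It was counted at an adjusted p under 0.05 with no rule on overlap, unlike the calls above. Against non-treated cells, the effect after RTX was more positive in 435 of 23463 bins (1.85%) and more negative in 335 (1.43%). Against 5FdUR it was more positive in 545 of 20968 bins (2.60%) and more negative in 1577 (7.52%). Where a bin or gene had no region in the other treatment, the test restates the difference after RTX with a smaller spread. The bins of the loci had been chosen for their difference after RTX, so their values are given as a description. At the PCDH7 run the covered share after 5FdUR was 2.36% and 3.17% in 5FdUR_UGI and 7.76% and 27.7% in 5FdUR_UGI_MMR, the opposite order to that after RTX. At chr3:61200001-61500000, the run that holds the start of FHIT, it was 17.1% and 33.6% against 51.4% and 48.7%, the same order as after RTX. No chromosome passed the interaction test in either comparison (limma, 23 chromosomes tested). With the covered share on a log2 ratio scale, the counts against non-treated cells dropped to 20 and 17, and those against 5FdUR were 191 and 1160. Over genes, the effect was more positive for 2.56% and more negative for 5.96% of 16386 genes against non-treated cells, and for 1.66% and 1.82% of 17795 genes against 5FdUR.

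The covered share of gene bodies differed with gene length. Genes under 10 kb, which had a median GC content of 52.8%, were covered to 39.5% and 46.3% on average in RTX_UGI and to 26.7% and 32.2% in RTX_UGI_MMR. Genes of 100 to 500 kb, with a median GC content of 40.3%, were covered to 21.4% and 23.3% against 25.1% and 24.2%. Over all GC contents, short genes were thus less covered and long genes more covered in MMR proficient cells, with no overlap between the groups in either class. Genes of 10 to 50 kb were covered to 48.3% and 53.3% against 38.8% and 46.0%. At 39 to 42% GC the order was turned for genes of this length, with 35.7% and 38.7% against 41.7% and 39.5%. The part of GC content in the difference by gene length was not tested. Among genes of 39 to 42% GC, those of 100 to 500 kb were covered to 20.6% and 21.8% against 27.1% and 24.7%, while those under 10 kb overlapped between the groups with 22.6% and 22.7% against 30.9% and 21.1%. Around gene starts, over 2.5 kb on either side of 19962 starts, 33.9% and 40.4% were covered in RTX_UGI and 22.9% and 27.8% in RTX_UGI_MMR.

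None of 13892 protein-coding genes tested was called higher (0%) or lower (0%) by limma, the smallest adjusted p being 0.185. At an unadjusted p under 0.05, 762 genes (5.49%) were higher and 1742 genes (12.5%) were lower, and the groups did not overlap for 2764 (19.9%) and 4581 genes (33%). When only the 2254 genes of at least 100 kb that passed the filter were tested, a restriction chosen after the data had been seen, 89 genes (3.95%) rose and 52 genes (2.31%) fell. The counts without single libraries ranged from 8 to 432 higher and from 13 to 69 lower, the lowest being without RTX_UGI replicate 2 and the highest without RTX_UGI_MMR replicate 2. The genes called higher had a median GC content of 39.9% and those called lower of 40.9%, the latter equal to that of all long genes tested.

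Among the long genes, SCOC had the largest increase, from 5.37% and 9.33% in RTX_UGI to 93.6% and 87.0% in RTX_UGI_MMR (SE of the difference 7.84 percentage points, limma adjusted p = 0.0107). SSPN rose from 11.7% and 14.8% to 92.6% and 82.8% (limma adjusted p = 0.0108). OSBPL6, an oxysterol-binding protein of chromosome 2, rose from 17.3% and 13.5% to 67.9% and 61.7% (limma adjusted p = 0.0275). These 3 genes were covered to at most 17.3% in RTX_UGI and to at least 61.7% in RTX_UGI_MMR. After 5FdUR, SCOC was covered to 63.5% and 66.3% in MMR deficient cells, and OSBPL6 to 12.5% and 12.4% in MMR proficient cells. SLC38A9, a lysosomal arginine sensor of the mTORC1 pathway, rose from 17.8% and 28.5% to 67.03% and 71.98%. UPP2, a uridine phosphorylase, rose from 19.8% and 22.004% to 75.1% and 58.4%. CDK15, a cyclin-dependent kinase, rose from 42.7% and 45.5% to 81.2% and 98.004%. The last 3 had the same limma adjusted p of 0.033.

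Among the long genes that fell, CAV2, a caveolin, went from 95.4% and 88.4% to 32.99% and 16.1% (SE of the difference 8.77 percentage points, limma adjusted p = 0.0149). MSRB3, a methionine sulfoxide reductase, fell from 95.2% and 98.6% to 33.02% and 28.5% (limma adjusted p = 0.0108). PLA2G6, a phospholipase of chromosome 22, fell from 85.01% and 91.3% to 10.3% and 38.1% (limma adjusted p = 0.0297). In each of these genes the RTX_UGI libraries were covered to at least 85.01%. DDX60L, an interferon-inducible helicase, fell from 64.8% and 72.4% to 9.94% and 7.51%. LIMA1, an actin-binding LIM protein, fell from 73.8% and 84.7% to 14.2% and 35.4%. PHLDB2, a cortical microtubule anchoring protein of chromosome 3, fell from 87.3% and 88.1% to 43.0% and 26.3%. Their limma adjusted p values were 0.0149, 0.033 and 0.0297. CAV2 was not covered in any of the 4 libraries treated with 5FdUR, and neither was LIMA1.

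Of the 13 genes of the mismatch repair list, all of which passed the filter, 6 were higher and 1 was lower in MMR proficient cells without overlap, and none was called. Over all genes tested the groups did not overlap for 19.9% in the upward and 33% in the downward direction, against which the counts of this and the following lists are to be read. The median difference was 2.97 percentage points, beside -6.01 for all genes tested. These shares varied with gene length. Of tested genes under 10 kb, 6.68% were higher and 37.3% lower without overlap, and of those of 100 to 500 kb 42.5% and 19.4%. The part of gene length and GC content in the counts of this list was not tested. PMS1, a MutL homologue, was covered to 1.39% and 3.52% against 31.6% and 15.2%. RFC1, the large subunit of the clamp loader, was covered to 51.4% and 55.8% against 68.2% and 73.04%. The member that was lower, POLD1, a catalytic subunit of DNA polymerase δ, differed widely between replicates with 76.7% and 87.6% against 9.74% and 75.5%. MSH6, which takes part in mismatch recognition, overlapped between the groups with 38.9% and 47.4% against 32.4% and 41.4%.

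Of the 20 genes of thymidylate and dUTP metabolism 15 were tested, of which 3 were higher and 6 were lower without overlap, near the shares of 19.9% and 33% over all genes. The median difference was -13.3 percentage points, and none was called. The 5 others had a mean covered share under 2%. SHMT2, the mitochondrial serine hydroxymethyltransferase that feeds the folate cycle, was covered to 92.7% and 89.1% in RTX_UGI and to 0% and 10.9% in RTX_UGI_MMR (limma adjusted p = 0.185). This gene is 5.36 kb long, close to the 5000 bp over which coverage was smoothed. FPGS, which adds glutamates to folates and to antifolates such as RTX, was covered throughout in RTX_UGI and to 45.7% and 28.6% in RTX_UGI_MMR. DUT, the dUTPase that keeps dUTP low, was not covered in RTX_UGI and was covered to 35.5% and 12.9% in RTX_UGI_MMR. DCTD, which deaminates dCMP to dUMP, stood at 0.714% and 0% against 35.7% and 12.9%. The target of the drug, TYMS, did not pass the filter, with 0% and 5.63% against 0% and 0%.

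In the uracil base excision repair list, 9 of 12 genes were tested, 1 was higher and 4 were lower without overlap, beside 19.9% and 33% of all genes tested, and none was called. APEX1, the AP endonuclease, was covered throughout in RTX_UGI and to 0% and 81.5% in RTX_UGI_MMR. This gene is 2.58 kb long, shorter than the 5000 bp over which coverage was smoothed. XRCC1, the scaffold of single-strand break repair, was covered to 61.6% and 40.6% against 0.538% and 19.1%. TDG, a glycosylase that removes thymine and uracil from mispairs with guanine, was covered to 82.3% and 100% against 74.03% and 54.1%. UNG itself overlapped between the groups with 45.7% and 75.1% against 64.8% and 63.5%. MBD4 was covered throughout in all 4 libraries, whereas APEX2 and LIG3 had no region in any of them.

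Genes of ribosomal proteins and of basic metabolism were more often lower than higher in MMR proficient cells, as were all genes tested (33% lower and 19.9% higher without overlap, median -6.01 percentage points), and none was called. Among the 20 cytosolic ribosomal protein genes, 17 were tested, none was higher and 9 were lower without overlap, and the median difference was -33.4 percentage points. RPL13 was covered throughout in both RTX_UGI libraries and in neither RTX_UGI_MMR library, and RPS2 to 82.8% and 100% against 0% and 0%. RPL13, of 3.87 kb, and RPS2, of 2.78 kb, are shorter than the 5000 bp over which coverage was smoothed. A single region can thus cover such a gene whole. Of the 18 genes of metabolism and the cytoskeleton, 2 were higher and 11 were lower without overlap, with a median of -19.01 percentage points. TUBB, a β-tubulin, was covered to 90.2% and 100% against 0% and 1.22%. The GC content was 55.2% over RPL13, 57.7% over RPS2 and 50.7% over TUBB, and the part of GC content in the lists was not tested. Of the intestinal epithelium list 15 of 18 genes were tested, with 1 higher and 7 lower without overlap, beside 19.9% and 33% of all genes tested, and a median of -12.8 percentage points. KRT8, an epithelial keratin, was covered to 68.1% and 71.1% against 0% and 4.73%, and KRT20 to 52.6% and 100% against 0% and 8.42%. CEACAM5, the carcinoembryonic antigen gene, had the opposite order with 15% and 0% against 62.3% and 85.5%. None of the members of these lists was called.

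The counts without overlap in the remaining lists are to be set against 19.9% higher and 33% lower over all genes. Of the 18 p53 target genes, all tested, 4 were higher and 4 were lower without overlap, with a median of -10.6 percentage points, and BAX was covered to 90% and 100% against 0% and 62.9%. Among 13 tested of the 18 colorectal cancer drivers, 4 were higher and 4 were lower, with a median of 7.38 percentage points. PIK3CA, a catalytic subunit of PI3-kinase on chromosome 3, was covered to 12.8% and 8.26% against 52.7% and 50.98%, while NRAS was covered to 91.1% and 60.5% against 28.2% and 12.9%. Of the HOX, PAX and GATA6 list 14 of 18 genes were tested, with none higher and 4 lower, and a median of -4.45 percentage points. Among 18 SLITRK, protocadherin and type II cadherin genes, PCDH7 was the only one that passed the filter, with 51.3% and 51.7% against 0.141% and 0%. None of the 18 very long genes at common fragile sites and none of the 16 zinc finger genes of chromosome 19 passed the filter, since their mean covered share was under 2%. None of the members of these lists was called.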

How the data were processed

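U-DNA-Seq libraries of 12 UGI-expressing HCT116 samples were used, 4 of them treated with RTX. Per the submitters' processing notes and the methods, mapping was to GRCh38 (BWA 0.7.17-r1194, SAMtools 1.9-50, Picard), duplicates, ambiguously mapped reads and blacklisted positions were taken out, and deepTools 3.2.1 gave coverage scaled to the genome (100 bp bins, smoothing over 5000 bp). The authors deposited, for each library, the regions whose log2 ratio of enriched to input coverage exceeded a threshold, with a log2 value per region. That column is unnamed, and its values were taken to be averages over the region. The lowest log2 value was 0.25 in both RTX_UGI libraries, 0.27 in RTX_UGI_MMR replicate 1 and 0.25 in replicate 2. It was 0.25 and 0.14 in 5FdUR_UGI, 0.2 and 0.13 in 5FdUR_UGI_MMR, and 0.29 and 0.32 in both NT_UGI and NT_UGI_MMR. Comparisons between treatments thus set regions of unlike thresholds side by side. The thresholds were set so that total length was similar within a condition. The methods name HiSeq and NovaSeq instruments with unlike read lengths, and the sequencing platform of each library is not given in the sources used here. A difference of platform between the groups could therefore not be examined.

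The percent of known bases of GRCh38 covered by regions was computed for 100 kb bins with at least 50% known bases, protein-coding genes of GENCODE release 44 and 23 chromosomes. Groups were taken from the labels. Covered percents were tested with limma 3.58.1 (R 4.3.3, eBayes with trend, without trend for chromosomes), with Benjamini-Hochberg adjustment. Bins and genes were tested where the mean of the 4 libraries was 2 to 98%, and chromosomes without this filter. Calls needed an adjusted p under 0.05 without overlap of the groups. Interactions were filtered on the mean over all libraries of both treatments and counted at an adjusted p under 0.05 alone. Other calculations used Python 3.11.15, NumPy 2.4.6 and pandas 2.3.3, and plots matplotlib 3.10.9. The methods describe the replicates as independent biological ones. Data were simulated for the 12083 bins with 200 changed. Their noise was independent and normal, with a spread that followed the smoothed trend of the real bins with the mean. On them this fit recovered 11, 183 and 200 of the 200 bins for differences of 20, 40 and 60 percentage points. It called 0, 5 and 9 unchanged bins. The simulation gave bins of equal mean the same spread, unlike real bins, so the recovery in the real data may differ. It also held no shift shared by a whole library, so it does not bear on the dependence on single libraries.

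The comparison and the gene lists were chosen with earlier results of these data known. Loci are the 5 longest runs of adjacent called bins in each direction, with up to 3 of their longest genes; chromosomes are 3 and the 3 largest differences in each direction; the largest called genes would have been named had any been called; of the lists of mismatch repair, uracil repair and thymidylate metabolism any member, and of the others up to 4 members with the largest difference, may be named. Long genes were taken from the 8 largest called differences in each direction, at most 1 per 5 Mb. Files of merged replicates, made by the authors, served as an alternative. Input and mock samples, coverage tracks and peaks were not used here. The values of some list members and 1 sequence are not reported here.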

Additional observations from a re-analysis of the deposited data

Results flagged for a closer look

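For these items the MMR effect after RTX (MMR proficient minus MMR deficient, in percentage points of covered share) differed from the MMR effect of another treatment in a limma interaction test. In each case the test adds little to the difference after RTX, for the reasons given with the values, and its p values are therefore left out.

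SHMT2, FPGS and TK1 had no region in any non-treated library, so the difference between the effects equals the difference after RTX. It was -14.3 for TK1, -85.5 for SHMT2 and -62.8 for FPGS, and the direct limma test of the difference after RTX called none of them (adjusted p of 0.262, 0.185 and 0.185). SHMT2 had no region in any of the 4 libraries treated with 5FdUR either, where the difference between the effects was again -85.5.

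The loci had been chosen for their difference after RTX, and the MMR effect without drug lay between -2.67 and 2.32 percentage points there. The mean difference between the effects was 68.2 at the SCOC locus of chromosome 4 and 62 at the SSPN locus of chromosome 12. It was 52.6 at the run of chromosome 3 that holds the start of FHIT. Of the loci called lower, the KRR1 locus of chromosome 12 had -65.25 and the POU5F1B locus of chromosome 8 had -58.3.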

How the results depend on the processing

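The number of 100 kb bins called higher and lower was 197 and 233. It was 789 and 878 on the scale of the log2 ratio of covered to uncovered share, 527 and 626 with equal genome-wide share, 0 and 0 with regions of a log2 of at least 0.34 or of at least 5 kb, 1884 and 1772 with the spread of 8 libraries of RTX and NT, 4015 and 3368 by absence of overlap alone, 12 and 7 without a filter, 0 and 0 with bins of 50 kb and 202 and 155 with bins of 500 kb. With single libraries left out it ranged from 0 to 1638 higher and from 0 to 837 lower. With the replicate block it was 1250 and 1522. The replicate numbers share only a number in the labels, and the deviations of equally numbered libraries correlated at 0.199.

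For genes, 0 and 0 became 7 and 47 on the log2 ratio scale, 990 and 2010 with 8 libraries, 2764 and 4581 by absence of overlap alone, 89 and 52 over genes of at least 100 kb (added after seeing the data), and 0 to 851 and 0 to 1874 with single libraries left out, the highest being without RTX_UGI_MMR replicate 2. Chromosomes called lower numbered 3. They numbered 0 with equal share or regions of at least 5 kb, 1 with 8 libraries and 0 to 4 with single libraries left out. By absence of overlap alone 7 were higher and 7 lower, and less the share given by GC content (added after seeing the data) 5 and 9. On the log2 ratio scale, the interactions gave 20 and 17 bins against non-treated cells, 191 bins more positive against 5FdUR, 229 genes more positive against non-treated cells, and 61 and 81 genes against 5FdUR.

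The difference in number of regions was 11078 with a log2 of at least 0.34. That of the median length, -50 bp, was 100 with gaps of up to 1 kb joined, 100 in the merged files, -1600 with a log2 of at least 0.34 and -100 to 0 with single libraries left out. That of the N50 was -22450, -29400 and -19300 bp under the first 3 of these settings, and that of the longest region -417450 with joined gaps and -362700 in the merged files. The causes were not tested. Read depth is not recorded in the files, so its limits are unknown.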

Other observations

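The highest log2 value on chromosomes 1 to 22 and X was 1.69, in a region of 5100 bp at chr20:15828001-15833100 that was found in RTX_UGI_MMR replicate 1. The next highest value in that library was 0.807, and the highest values were 0.768 and 0.816 in the RTX_UGI libraries and 0.62 in RTX_UGI_MMR replicate 2. On contigs other than these chromosomes the highest log2 value was 3.29 and 3.24 in RTX_UGI and 1.1 and 0.952 in RTX_UGI_MMR, beside 2.32 and 2.9 in NT_UGI and 3.42 and 2.85 in NT_UGI_MMR.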
